A study of Mus musculus with 6 samples.

Results

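A set of 9 genes of the marrow niche was examined in cultured macrophages of mice, out of the 17313 genes in the deposited table. They were taken by symbol: the niche factors Cxcl12, Kitl and Angpt1, the adhesion molecule Vcam1, the receptor Lepr, and the transcription factors Ebf1, Ebf2, Ebf3 and Foxc1. The 6 libraries came from bone marrow-derived macrophages of mice on the C57BL/6 background. Every mouse carried floxed Hdac2 (Hdac2fl/fl) and had LLC1 cells, from a Lewis lung carcinoma of the mouse, injected by vein, and the marrow was collected 20 days later for culture. The 3 libraries with the genotype label WT came from mice without Cre and therefore still held floxed alleles. The 3 libraries labelled HDAC2_KO_BMDMs, called KO here, came from mice with LysM-Cre, a recombinase driven from the lysozyme gene that deletes floxed DNA in myeloid cells. The ages of the mice are not given in the sources used here. Whether each library came from its own mouse is not stated either, so the p-values cover only the spread among these samples, part of which may be technical.

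In marrow, reticular stromal cells hold blood stem cells and lymphoid progenitors in place by secreting CXCL12 and stem cell factor, the product of Kitl. These cells are known for carrying the leptin receptor, and FOXC1 and the EBF factors keep them from turning into fat or bone cells. Macrophages are commonly grown from whole marrow, which holds such stromal cells beside the blood cells. The comparison asks how the RNA of these genes differs between KO and WT cultures.

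Of the 9 genes, 6 had an entry among RefSeq promoter windows of GRCm38.p6, the mm10 assembly. The upstream stretches of Cxcl12, Ebf3, Foxc1 and Ebf1 are shown because these genes were higher in every KO library than in every WT library, and because the title of the series names SP1, a factor that binds GC boxes. Capitals mark each GC box, GGGCGG or its reverse complement. The stretches are chr6:117168285-117168534 on the plus strand for Cxcl12, chr7:137314446-137314695 on the minus strand for Ebf3 and chr13:31806396-31806632 on the plus strand for Foxc1, each ending before the first annotated exon. For Ebf1 the stretch is chr11:44619978-44620227 on the plus strand, within an intron of the gene and ahead of the later of its listed starts, because the window of the earlier start meets annotated exons.
Cxcl12: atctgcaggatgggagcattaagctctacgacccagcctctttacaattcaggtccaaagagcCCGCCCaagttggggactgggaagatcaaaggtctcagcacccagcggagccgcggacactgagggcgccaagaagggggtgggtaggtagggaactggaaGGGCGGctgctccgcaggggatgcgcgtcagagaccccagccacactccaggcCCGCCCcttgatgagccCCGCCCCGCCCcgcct
Ebf3: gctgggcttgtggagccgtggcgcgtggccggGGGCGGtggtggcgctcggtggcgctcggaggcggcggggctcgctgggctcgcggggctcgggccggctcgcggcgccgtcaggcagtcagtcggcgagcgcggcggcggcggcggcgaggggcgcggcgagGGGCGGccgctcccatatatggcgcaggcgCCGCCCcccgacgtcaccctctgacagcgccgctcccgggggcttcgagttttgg
Foxc1: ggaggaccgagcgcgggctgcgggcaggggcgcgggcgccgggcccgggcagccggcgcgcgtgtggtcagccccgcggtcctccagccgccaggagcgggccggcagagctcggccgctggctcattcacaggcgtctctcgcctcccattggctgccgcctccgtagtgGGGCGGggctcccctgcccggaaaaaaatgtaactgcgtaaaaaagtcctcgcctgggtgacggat
Ebf1: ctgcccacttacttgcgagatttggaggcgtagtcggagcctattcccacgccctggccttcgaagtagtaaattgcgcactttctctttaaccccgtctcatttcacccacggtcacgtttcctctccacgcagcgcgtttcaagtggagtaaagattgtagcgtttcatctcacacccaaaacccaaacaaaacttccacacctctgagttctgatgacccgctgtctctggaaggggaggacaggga

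The 250 bases before the start site held 5 GC boxes in Cxcl12, with the last pair sharing a base, 3 in Ebf3 and 1 in Foxc1, while both windows of Ebf1 held 0. Of 32851 RefSeq windows of the same length, 32.7% held at least 1, 8.47% at least 3 and 1.93% at least 5. The share of G and C was 64.4% for Cxcl12, 80.0% for Ebf3 and 70.8% for Foxc1, against a median of 52.4% over all windows, and it was 40% and 52% in the windows of Ebf1. GC boxes were thus present for Cxcl12, Ebf3 and Foxc1 and absent for Ebf1. Both windows of Ebf1 lie inside the gene, however, and Ebf2 had no window. Whether GC boxes are common to the members higher in every KO library therefore cannot be told. The window of Kitl, the gene that was lower in KO, held 3 GC boxes as well, but 0 in the 59 bases ahead of the first annotated exon. None of the 4 printed genes had a match to the palindromic EBF consensus motif, found in 0.779% of all windows, or to the forkhead motifs GTAAACA and GTAAATA, found in 3.17% and 2.73%, on either strand. A match is a run of letters in this window and not a bound site.

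Values are whole numbers, taken here as read counts that were scaled within each library and rounded before deposit and called scaled counts, and library totals lay between 5704313 and 5837994. Hdac2, the targeted deacetylase gene, stood at 534, 482 and 518 in the WT libraries, all above the 392, 387 and 375 of KO. The libraries did not part by genotype alone. Xist, which marks female cells, was at 0 in WT 2 and 74 in WT 3 and between 3298 and 5243 in WT 1 and all KO libraries, and 4 Y-linked genes summed to 1372 in WT 2 and 2100 in WT 3. In WT 1 these 4 genes summed to 137, and in KO to 0 to 19. All 18 macrophage identity markers were measured, and their sum was 22468 to 23800 in WT, against 21935 to 22465 in KO. In the KO mean 12 of them were lower and 6 higher. In 9 all KO libraries lay below all WT libraries and in 0 above, beside 13.4% and 16.1% of the 13260 genes tested. Because WT 1 stood nearer to KO in the sex-linked genes, every tested member is also given without WT 1 and as the KO mean against WT 1. In the fit without WT 1 genotype and the sex-linked split cannot be told apart. In bulk RNA, fewer cells of a type and less RNA per cell cannot be told apart either.

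Of the 8 members that could be tested, 7 were higher in the KO mean and 1, Kitl, was lower. In 5 of them all KO libraries exceeded all WT libraries, against 16.1% of the 13260 genes tested, and for Kitl all KO libraries lay below, against 13.4%. The median log2 difference was 1.85 over the 8 tested members and 1.84 over all 9, beside -0.0046 over all genes tested. None passed the limma test with Benjamini-Hochberg adjustment, and 0.0% of all genes did (smallest adjusted p = 0.158). Without adjustment, 5 members were higher and 1 lower at a p under 0.05, beside 14.7% and 9.68% of all genes. In the same fit without WT 1, 5 members passed as higher and none as lower, where 12.8% and 5.07% of all genes passed. The tested genes had at least 10 scaled counts in at least 3 libraries. Ebf2 and Ebf3, counted among the higher members, would not have passed this filter on their WT libraries alone. Differences are on the log2(scaled count + 1) scale, where the change of a gene with low values comes out too small.

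**Figure D1:**
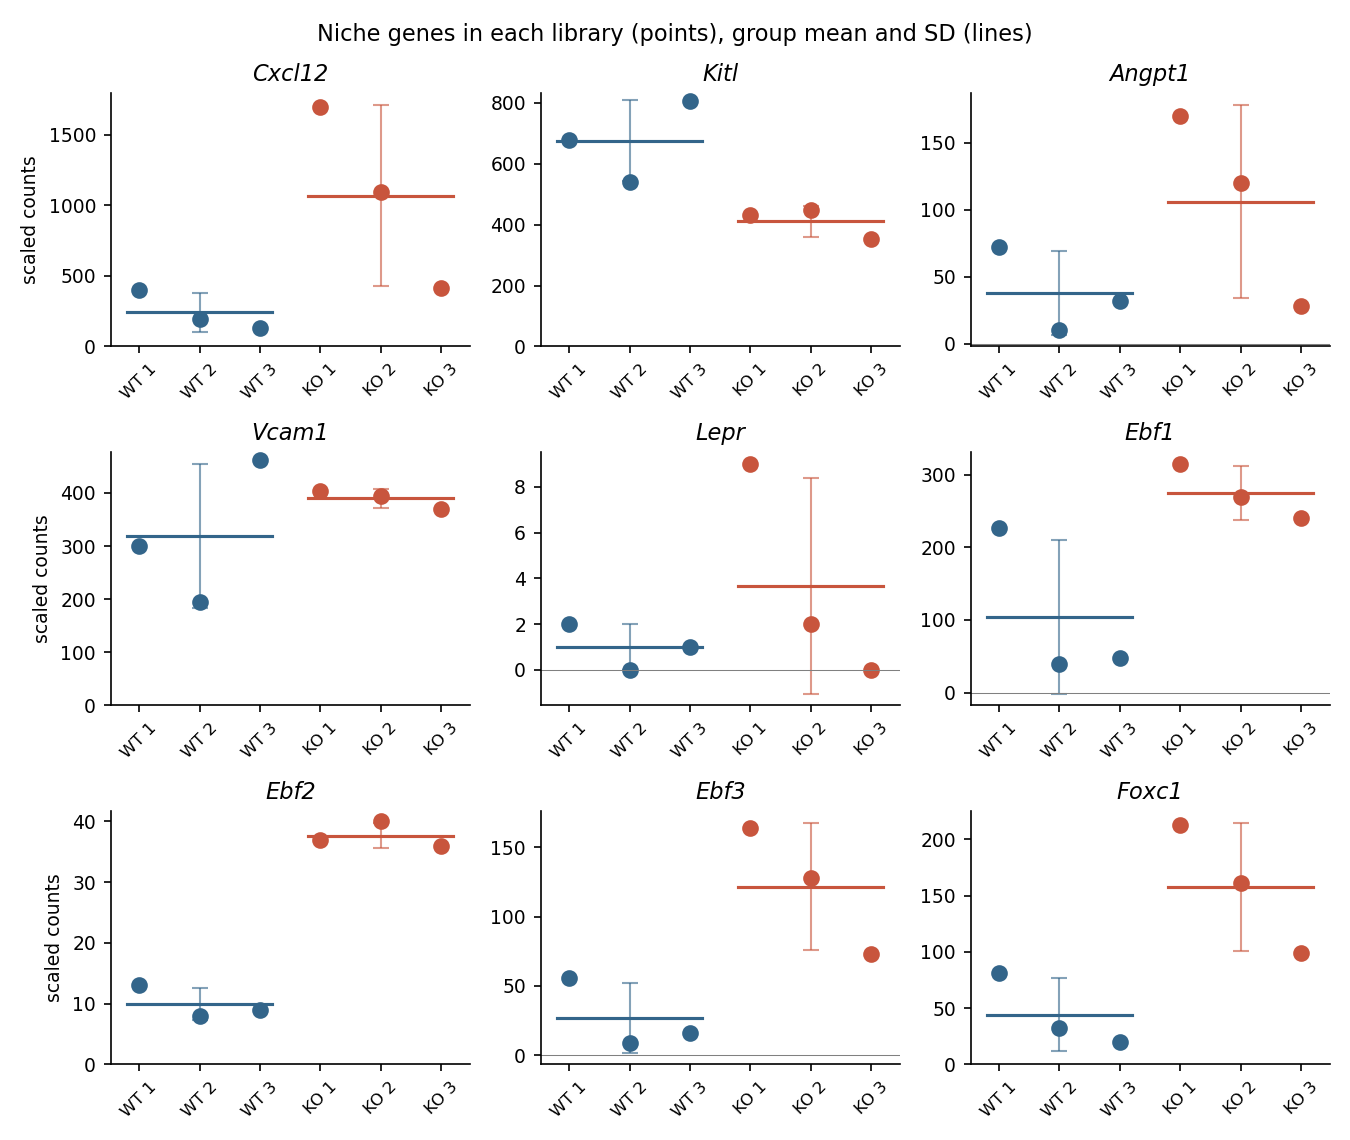
Scaled counts (y axis, linear, scaled separately for each gene) of the 9 niche genes in each of the 6 libraries (x axis), with WT in blue and KO in red; horizontal lines are group means and bars are SD (n = 3). Cxcl12, Ebf1, Ebf2, Ebf3 and Foxc1 show no overlap between groups with KO higher, Kitl shows none with KO lower, and Lepr stays between 0 and 9.

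Cxcl12 encodes a chemokine that keeps blood progenitors in the marrow (ENSMUSG00000061353, chromosome 6, 117168535 to 117181367, mm10). It was at 400, 194 and 132 scaled counts in WT, against 1699, 1094 and 413 in KO, or 242 ± 140 and 1069 ± 643 (SD, n = 3 each). KO 1 and KO 2 stood far above all other libraries, while KO 3, at 413, stood just above WT 1, at 400. The KO mean was 4.42 times the WT mean, a log2 difference of 2.07 ± 0.615 (SE). The limma adjusted p was 0.158 with all libraries and 0.036 without WT 1, where the difference was 2.51, and it ranged from 0.036 to 0.844 over the alternatives. Against WT 1 alone the log2 difference was 1.19, with 0 genes called in the whole table. The highest KO library was 4.11 times the lowest, so the spread inside KO was similar in size to the difference between the group means.

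Kitl encodes stem cell factor, the ligand of the receptor KIT (ENSMUSG00000019966, chromosome 10, 100015630 to 100100416). It ran opposite to Cxcl12, at 680, 540 and 806 in WT, against 431, 448 and 353 in KO, or 675 ± 133 and 411 ± 50.7 (SD, n = 3). All KO libraries lay below all WT libraries, and WT 1 stood between WT 2 and WT 3. The log2 difference was -0.70 ± 0.165 with all libraries, -0.69 without WT 1 and -0.73 for the KO mean against WT 1. It lay between -0.86 and -0.57 over 16 alternatives. It was -0.40 against WT 2 alone and -0.98 against WT 3 alone, so the size depended on the WT library. It did not pass the limma test (adjusted p = 0.158, and 0.0602 without WT 1, with a range of 0.0602 to 0.79 over the alternatives).

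Angpt1 encodes angiopoietin-1, a ligand of the TIE2 receptor that steadies vessels (ENSMUSG00000022309, chromosome 15, 42424723 to 42676977). It was at 72, 10 and 32 in WT, against 170, 120 and 28 in KO, or 38.0 ± 31.4 and 106 ± 72 (SD, n = 3). The groups overlapped, because KO 3 lay below WT 1 and WT 3. The difference was 1.5 ± 0.905 on the log2 scale (limma adjusted p = 0.353), 2.15 without WT 1 and 0.21 against WT 1 alone. Without KO 3 it was 2.27, and without WT 2 it was 0.78. An antisense gene, Gm17473, covers part of its exons and shares 13.0% of the 72-base words of its transcripts, and because the sources do not say whether strand was used in counting, reads of the pair may not be separable.

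Vcam1 encodes an adhesion molecule that stromal cells, endothelial cells and some marrow macrophages display to cells with the integrin VLA-4 (ENSMUSG00000027962, chromosome 3, 116109949 to 116129688). It was at 300, 194 and 462 in WT, against 404, 395 and 370 in KO, or 319 ± 135 and 390 ± 17.6 (SD, n = 3). The KO libraries lay close together within the range of the WT libraries. On the log2 scale the KO mean was higher by 0.38 ± 0.295 (limma adjusted p = 0.475), 0.38 without WT 1 (limma adjusted p = 0.496), 0.38 against WT 1 alone, 0.06 without WT 2 and 0.69 without WT 3. The difference was 1.0 against WT 2 alone and -0.25 against WT 3 alone, so its direction depended on the WT library. Vcam1 did not share the pattern in which WT 1 sits above WT 2 and WT 3, which 6 of the 8 tested members had and 32.7% of all genes tested.

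Lepr encodes the leptin receptor, the marker by which these stromal cells are commonly traced (ENSMUSG00000057722, chromosome 4, 101717404 to 101815352). It was listed at 2, 0 and 1 in WT, against 9, 2 and 0 in KO, too low to be tested. The untested log2 difference was 0.77, rested on KO 1, without which it was -0.07, and was 1.14 without WT 1 and 0.05 against WT 1 alone. At 0.142 scaled counts per exonic kilobase in WT and 0.52 in KO, it was the lowest of the 9 genes. In 5 of the 6 libraries this defining receptor of CXCL12-abundant reticular cells was at 2 scaled counts or fewer. The genes are described here one by one and not as a measure of that cell type.

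Ebf1, Ebf2 and Ebf3 encode close relatives of 1 transcription factor family. Their transcripts have no 72-base word in common with each other or with another member, so exact reads of this length can be told apart. Ebf1, which also drives B cell development, was at 227, 39 and 47 in WT, against 315, 270 and 240 in KO (ENSMUSG00000057098, chromosome 11, 44617317 to 45008091), or 104 ± 106 and 275 ± 37.7 (SD, n = 3). WT 1 lay close under the KO libraries and at 5.28 times the mean of WT 2 and WT 3. The log2 difference was 1.85 ± 0.652 with all libraries (limma adjusted p = 0.168) and 0.27 against WT 1 alone. Without WT 1 it was 2.65 ± 0.157 (limma adjusted p = 0.000577, with a range up to 0.832 over the alternatives). Of 12 B cell markers 6 were measured and 4 tested, of which Cd79b, a part of the B cell receptor, was at 12.7 ± 4.04 in WT, against 34.0 ± 5.0 in KO and Cd22 at 182 ± 17.6 and 125 ± 10.8 (SD, n = 3). The summed B cell markers were 1270 to 1415 in WT, against 1129 to 1278 in KO, and their part in Ebf1 was not tested.

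Ebf2, known from fat and bone precursors, had the tightest groups of the family (ENSMUSG00000022053, chromosome 14, 67233292 to 67430918). It was at 13, 8 and 9 in WT, against 37, 40 and 36 in KO, or 10 ± 2.65 and 37.7 ± 2.08 (SD, n = 3). The KO mean was 3.77 times the WT mean, and WT 1 stayed with the other WT libraries. The log2 difference was 1.84 ± 0.248, 2.03 without WT 1 and 1.46 against WT 1 alone. By limma its unadjusted p of 0.00027 was the 4th smallest of all genes, with an adjusted p of 0.158, and 0.00288 without WT 1. It ranged from 0.00288 to 0.79 over the alternatives. At these low values Ebf2 passed the filter only with its KO libraries, since WT 2 and WT 3 lay under 10. Gm10860, an antisense gene, shares 4.19% of its 72-base words.

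Ebf3, which with Foxc1 maintains niche cells, had the largest log2 difference of the 8 tested members (ENSMUSG00000010476, chromosome 7, 137193673 to 137314445). It was at 56, 9 and 16 in WT, against 164, 128 and 73 in KO, or 27.0 ± 25.4 and 122 ± 45.8 (SD, n = 3). All KO libraries were higher than WT 1, itself well above WT 2 and WT 3. The log2 difference was 2.45 ± 0.671, 3.16 without WT 1 and 1.03 against WT 1 alone. The limma adjusted p was 0.158, and 0.00521 without WT 1, and it ranged up to 0.79. The antisense gene Gm45278 shares 1.57% of its 72-base words.

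Foxc1 encodes a forkhead factor needed for the upkeep of reticular niche cells (ENSMUSG00000050295, chromosome 13, 31806633 to 31812476). It was at 81, 32 and 20 in WT, against 213, 161 and 99 in KO, or 44.3 ± 32.3 and 158 ± 57.1 (SD, n = 3). Its libraries stood in the same order as those of Cxcl12, with KO 1 the highest and WT 3 the lowest. KO exceeded WT by 1.98 ± 0.542 on the log2 scale, by 2.52 without WT 1 and by 0.88 against WT 1 alone. The limma adjusted p was 0.158, and 0.00795 without WT 1, and it ranged up to 0.791.

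**Figure D2:**
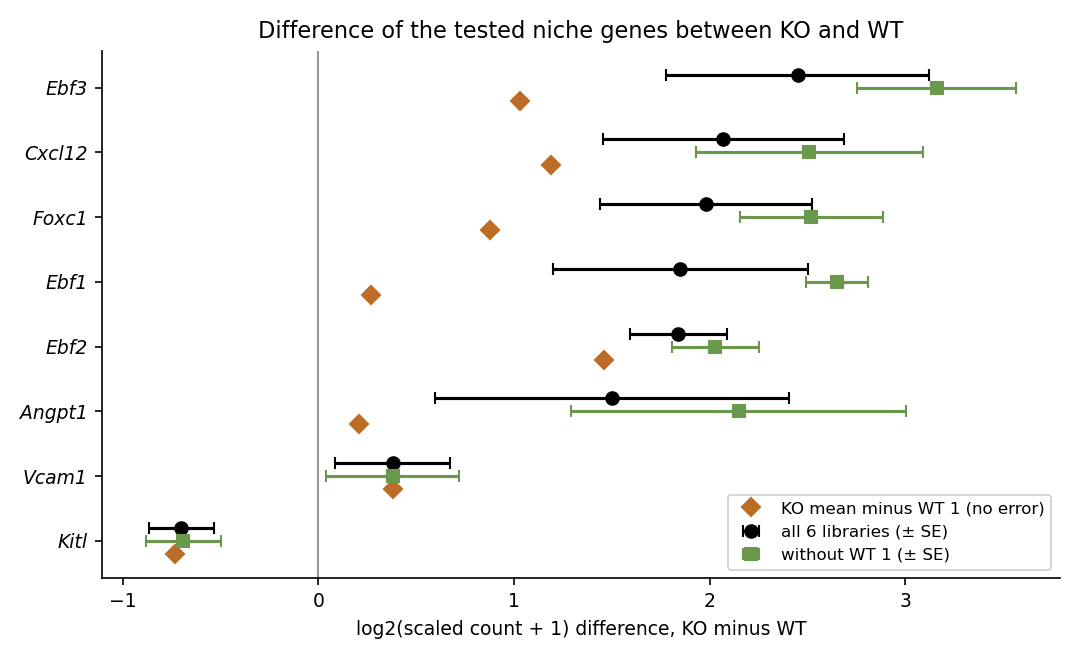
Differences in log2(scaled count + 1) between KO and WT (x axis) for the 8 tested niche genes (y axis), from all 6 libraries (black, ± SE), without WT 1 (green, ± SE) and as the KO mean minus WT 1 (brown, no error). Kitl sits near -0.70 in all 3, Ebf2 stays between 1.46 and 2.03, and Ebf1 ranges from 0.27 against WT 1 alone to 2.65 without WT 1.

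Against WT 1 alone the median log2 difference of the tested members was 0.63, beside -0.0017 over all genes tested. The members fell on both sides of that value. Ebf2, Cxcl12, Ebf3 and Foxc1 were at 1.46, 1.19, 1.03 and 0.88, each smaller than its difference with all libraries. Vcam1, Ebf1 and Angpt1 were at 0.38, 0.27 and 0.21, and Kitl at -0.73. For Cxcl12, Ebf1, Ebf2, Ebf3 and Foxc1, WT 1 lay above WT 2 and WT 3 and below every KO library, a pattern held by 12.5% of all genes tested.

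Levels per exonic length order the genes. In WT Kitl was highest, at 114 ± 22.5 scaled counts per kilobase, followed by Vcam1 at 35.9 ± 15.2 and Cxcl12 at 29.6 ± 17.2 (SD, n = 3), which do not differ beyond their spread. Ebf1, Foxc1 and Angpt1 came next, at 10.7 ± 10.9, 7.59 ± 5.53 and 7.30 ± 6.04, again within their spread. Ebf3 was at 2.93 ± 2.75 and Ebf2 at 1.44 ± 0.382. In KO Cxcl12 led at 131 ± 78.7, with Kitl at 69.5 ± 8.57 within its spread, and Vcam1 followed at 43.9 ± 1.99. Ebf1 at 28.2 ± 3.87, Foxc1 at 27.0 ± 9.77 and Angpt1 at 20.4 ± 13.8 did not differ beyond their spread, and Ebf3 at 13.2 ± 4.97 and Ebf2 at 5.44 ± 0.30 closed the order above Lepr. The median gene tested was at 66.3 per kilobase in WT, against 68.4 in KO. By group means Cxcl12 thus moved from above 29.2% of tested genes in WT to above 75.9% in KO, and Kitl from 70.0% to 50.4%. The KO mean of Cxcl12 rested on KO 1 and KO 2, at 208 and 134 per kilobase. KO 3, at 50.5, stood beside WT 1, at 48.9, and below the median gene.

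**Figure D3:**
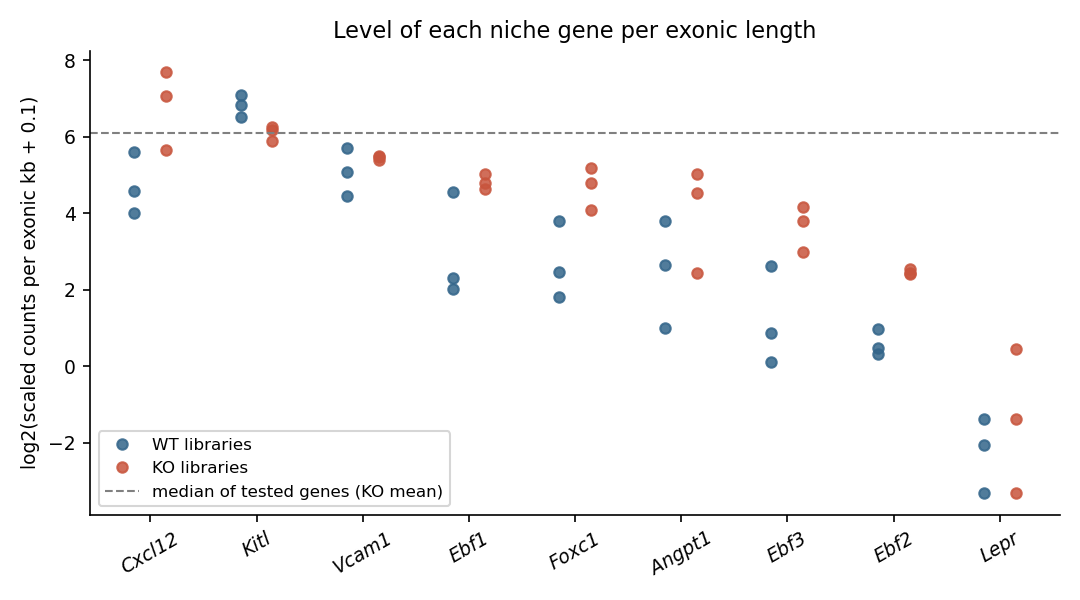
Level of each niche gene as log2(scaled counts per exonic kilobase + 0.1) on the y axis, for the genes on the x axis ordered by KO mean, with WT libraries in blue and KO libraries in red and the median of all tested genes (68.4 per kilobase in KO) as a dashed line. Cxcl12 and Kitl are the genes that reach the dashed line. Cxcl12 lies above it only in KO 1 and KO 2, and Kitl lies above it in every library but KO 3.

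The other stromal genes of these libraries give a scale for the members. Of 18 fibroblast and pan-mesenchymal markers 17 were measured, and their sum was 22430, 9850 and 10454 in WT, against 27028, 25584 and 22996 in KO, so WT 1 lay just below KO 3. Of 16 tested, 15 were higher in the KO mean, 9 without overlap between groups, where 16.1% of all genes tested were higher without overlap. None passed the limma test, and the median log2 difference was 0.98. The fibrillin gene Fbn1 was at 1241 ± 947 in WT, against 2988 ± 255 in KO, and Loxl1, a collagen and elastin crosslinker, at 323 ± 241 and 752 ± 48.0 (SD, n = 3). All of Lum, Dcn and Thy1 were at 26 scaled counts or fewer in every library.

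Set against that sum, the members did not all behave alike. Ebf2 was at 0.58, 0.812 and 0.861 per 1000 of the sum in WT, against 1.37, 1.56 and 1.57 in KO, without overlap. Ebf3 was at 2.50, 0.914 and 1.53 and at 6.07, 5 and 3.17, and Foxc1 at 3.61, 3.25 and 1.91 and at 7.88, 6.29 and 4.31. Ebf1 was at 10.1 in WT 1, 3.96 and 4.50 in WT 2 and WT 3, and 10.4 to 11.7 in KO, so WT 1 lay just below KO. These 4 transcription factors were higher against the sum in every KO library, but so were 3 of the 17 markers inside it. One of them, Fbn1, was at 104, 70.9 and 66.0 per 1000 in WT, against 121, 116 and 120 in KO. The markers are part of the sum, which damps their own ratios. The ratio therefore cannot decide whether the factors differ from mesenchymal genes. Over the 8 tested members the median log2 difference relative to the sum was 0.92. It was 0.8 to 1.12 on leaving out single libraries. Cxcl12 was at 17.8, 19.7 and 12.6 in WT, against 62.9, 42.8 and 18.0 in KO, where KO 3 fell among the WT libraries. Angpt1 overlapped, at 1.02 to 3.21 and 1.22 to 6.29. Kitl was at 30.3, 54.8 and 77.1 in WT, against 15.4 to 17.5 in KO, and Vcam1 at 13.4, 19.7 and 44.2 and at 14.9 to 16.1. The sum itself was higher in every KO library, so a gene with steady values would also fall against it. The lower ratio of Kitl in KO is therefore set in part by the sum. These ratios are descriptions without a test.

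**Figure D4:**
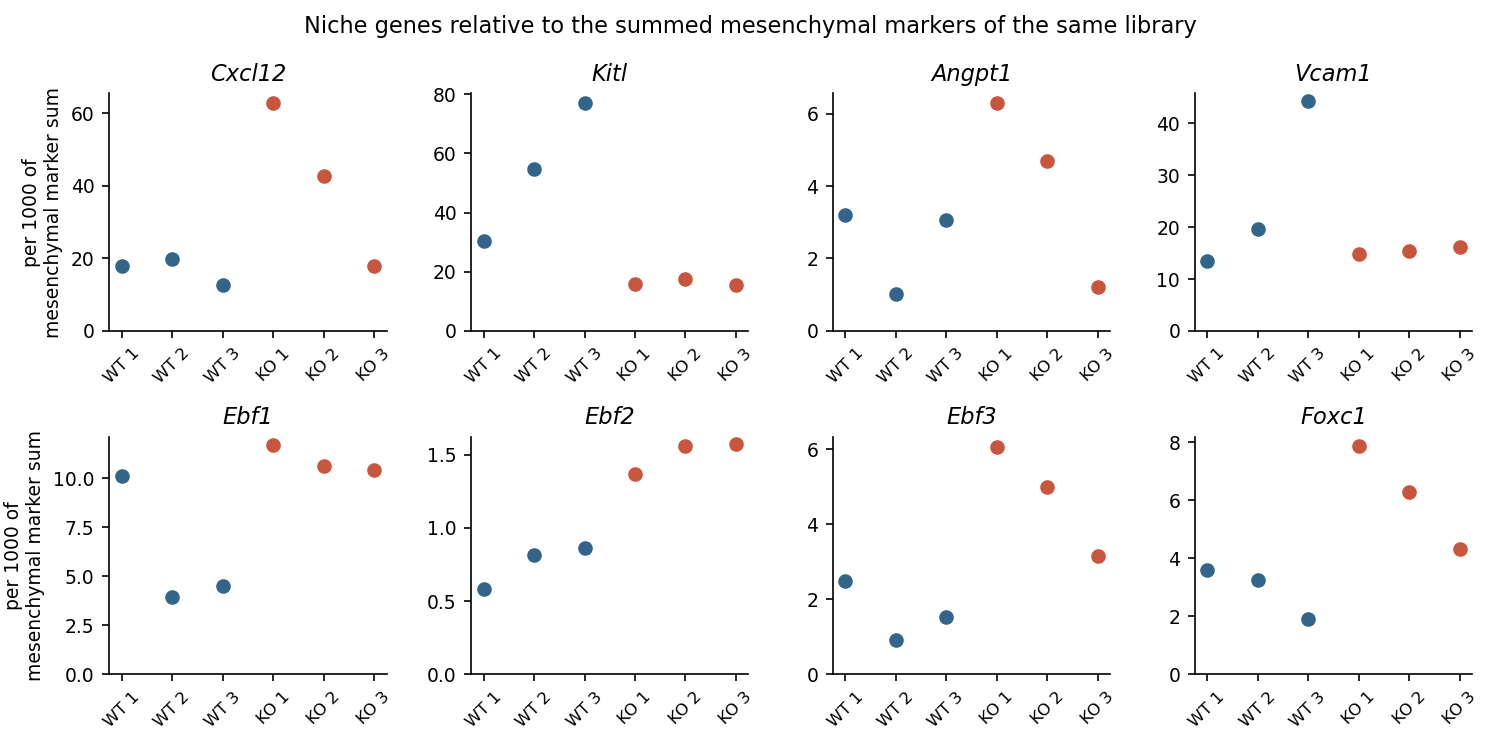
Each niche gene except Lepr per 1000 scaled counts of the summed 17 mesenchymal markers of the same library (y axis) in the 6 libraries (x axis), WT in blue and KO in red. Ebf1, Ebf2, Ebf3 and Foxc1 are higher in every KO library, Ebf1 by a small margin over WT 1 (10.1), Kitl is lower in every KO library, and Cxcl12 in KO 3 (18.0) lies beside WT 1 (17.8). The sum is higher in every KO library, so a gene with steady values also falls against it.

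The members also differed in how they varied inside the KO group. In 6 of the 8 tested members KO 1 was highest, KO 2 next and KO 3 lowest, an order held by 20.1% of all genes tested. The ratio of the highest to the lowest KO library was 6.07 for Angpt1, 4.11 for Cxcl12, 2.25 for Ebf3 and 2.15 for Foxc1. It was 1.31 for Ebf1, 1.27 for Kitl, 1.11 for Ebf2 and 1.09 for Vcam1. Over the 6 libraries, the closest pair of members was Cxcl12 and Foxc1, with a root mean square distance of 0.307 between their log2 profiles after each was centred on its mean. Kitl was nearest to Vcam1 at 0.579 and farthest from Ebf3 at 1.74.

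Genes outside the set with the most similar profiles were sought among 10604 tested genes with a mean of at least 50, or 11450 with a mean of at least 20 for Ebf2, by the same distance over 6 libraries. For Cxcl12 they were Rspo2, an activator of Wnt signalling (0.161), Ddit4l (0.172) and Cdo1 (0.267). Rspo2 stood at 147, 66 and 35 in WT, against 512, 305 and 137 in KO. For Foxc1 they were the Hedgehog co-receptor gene Boc (0.121), Mtss2 (0.138) and the elastic fibre gene Fbln5 (0.153). For Ebf3 they were Sertad4 (0.0893), Pcdh18 (0.126) and the protease gene Adamts12 (0.133), and for Ebf1 the adrenergic receptor gene Adra2a (0.0753), Brinp1 (0.0909) and the Hippo pathway effector Yap1 (0.103). Ebf2 was closest to Shroom4 (0.168), Bok (0.215) and Chrnb1 (0.221), and Angpt1 to the integrin gene Itgb8 (0.247), AI504432 (0.42) and Cp (0.423). Kitl was closest to Olfr111 (0.0993), P2ry10b (0.115) and Cd34 (0.118), a surface marker of progenitors that stood at 224, 164 and 249 in WT, against 158, 137 and 130 in KO. Vcam1 was closest to Zfand4 (0.146), Zfp248 (0.154) and Orc1 (0.158).

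The relatives and cofactors of the EBF and FOXC factors held other genes with large differences. Of 10 such genes 9 were tested, of which 7 were higher in the KO mean. Without overlap 5 were higher and 1 lower, beside 16.1% and 13.4% of all genes tested. The median log2 difference was 1.69, and none passed the limma test. Foxc2, the sister gene of Foxc1, was at 78, 21 and 18 in WT, against 143, 135 and 127 in KO. Zfp423, a zinc finger partner of EBF proteins, was at 9, 4 and 6 and at 36, 33 and 19, and its relative Zfp521 at 6, 4 and 3 and at 27, 21 and 11, and both passed the filter on low values only through KO. Snai2 and Prrx1, mesenchymal transcription factors, were at 97.7 ± 83.4 and 315 ± 268 in WT, against 258 ± 57.6 and 848 ± 236 in KO (SD, n = 3). Klf7, a Kruppel-like factor, was at 473 ± 40.8 and 569 ± 13.4, without overlap, and Runx2, a regulator of bone formation, at 210 ± 31.0 and 260 ± 28.2. Runx1, which macrophages also express, was at 1277 ± 35.8 and 1159 ± 81.5, and its binding partner Cbfb at 901 ± 7.37 and 859 ± 20.2 (SD, n = 3). Ebf4 was at 0 to 3 in WT, against 2 to 6 in KO. Without WT 1, 7 of the 9 passed as higher and none as lower, where 12.8% and 5.07% of all genes passed. Zfp423 and Zfp521, which entered the test only through KO, are among these 7 and among the 5 higher without overlap. Against WT 1 alone the median was 0.39.

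The receptors and partners of the niche factors differed in both directions. Of 13 genes 9 were tested, with 5 higher and 4 lower in the KO mean, and none passed the limma test. Without overlap 3 were higher and 1 lower, beside 16.1% and 13.4% of all genes tested. The median log2 difference was 0.11, between -1.08 for Itgb7 and 2.21 for Socs3. Cxcr4, the receptor of CXCL12, was at 509, 463 and 449 in WT, against 518, 573 and 555 in KO, a log2 difference of 0.21 ± 0.0691. Ackr3, its second receptor, was at 9 scaled counts or fewer, and the TIE2 gene Tek at 4 or fewer. Kit, the receptor for the product of Kitl, was at 4, 18 and 9 in WT, against 4, 3 and 6 in KO. Thus the receptors of Kitl and Angpt1 were near 0 in both groups, while Cxcr4 was at 449 or more in every library. Angpt2, a ligand that competes with ANGPT1, was at 51, 35 and 32 in WT, against 71, 62 and 92 in KO.

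Itga4 and Itgb1, the chains of the VCAM1 receptor VLA-4, were at 1941 ± 282 and 2199 ± 75.0 in WT, against 1570 ± 270 and 2098 ± 13.1 in KO (SD, n = 3). Itgb7, the other partner of the Itga4 chain, was at 42, 103 and 81 and at 35, 24 and 42, and Itga9 at 681 ± 87.5 and 757 ± 75.9. Below the leptin receptor, Jak2 was at 560 ± 49.2 and 553 ± 35.2 and Stat3 at 1141 ± 88.0 and 1233 ± 24.9, while their feedback inhibitor Socs3 was at 75, 24 and 19 in WT, against 185, 156 and 128 in KO. Without WT 1, Cxcr4, Angpt2 and Socs3 passed as higher and Itgb7 as lower, where 12.8% and 5.07% of all genes passed. Their limma adjusted p-values were 0.0465, 0.0189, 0.000923 and 0.0196, against 0.160, 0.158, 0.158 and 0.168 with all libraries.

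Other genes known from CXCL12-abundant reticular cells numbered 37, of which 33 were measured and 26 tested. In the KO mean 22 were higher and 4 lower, with a median log2 difference of 1.19, and none passed the limma test. Without overlap 7 were higher and 1 lower, beside 16.1% and 13.4% of all genes tested. Dpep1, a membrane dipeptidase, was at 23, 13 and 6 in WT, against 115, 50 and 34 in KO, and Pgf, a growth factor of vessels, at 62, 22 and 15 and at 101, 92 and 76. Tmem176b was at 284 ± 97.6 and 464 ± 27.7, and Lpl, the lipoprotein lipase that macrophages also make, at 3195 ± 361 and 2276 ± 357 (SD, n = 3). Without WT 1, 11 passed as higher and 1 as lower, where 12.8% and 5.07% of all genes passed. The median against WT 1 alone was 0.21.

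Markers of other cells that a marrow culture can hold were higher in some lists and lower in others in the KO mean, and none passed the limma test. Over all genes tested, 16.1% were higher and 13.4% lower in KO without overlap. All 10 pericyte and smooth muscle markers were tested and higher in the KO mean, 8 without overlap, with a median of 1.47. Their sum was 4063, 1649 and 1816 in WT, against 4809 to 5237 in KO, and Mcam, an adhesion molecule of pericytes, was at 131 ± 115 and 397 ± 28.0 (SD, n = 3). Of 12 endothelial markers 9 were measured and 7 tested, 5 higher and 2 lower in the KO mean, 3 of the higher without overlap, with a median of 0.48. Egfl7, a secreted endothelial protein, was at 10 ± 2.65 and 18.7 ± 0.577, Flt4, a VEGF receptor, at 8.0 ± 7.21 and 18.7 ± 0.577, and the scavenger receptor Stab2 at 66.0 ± 17.6 and 34.3 ± 11.0 (SD, n = 3). Vwf, the von Willebrand factor gene, was at 626, 1374 and 790 in WT, against 316, 404 and 640 in KO, while Pecam1 was at 19 or fewer. Of 10 osteoblast markers 5 were measured, with the collagen gene Col11a2 at 33.3 ± 3.21 and 49.7 ± 2.08 and Ibsp at 0 to 4 in WT, against 3 to 37 in KO. Of 7 adipocyte markers 2 were measured, with Fabp4, a lipid carrier that macrophages also make, at 258 ± 42.7 and 172 ± 12.7. The other, the lipid droplet gene Plin4, was at 5, 9 and 2 and at 43, 23 and 10, and it passed the filter on low values only through KO. Megakaryocyte markers, 5 of 8 measured, summed to 342 to 405 in WT, against 338 to 344 in KO. The part of any of these cells in the members' values was not tested.

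**Figure D5:**
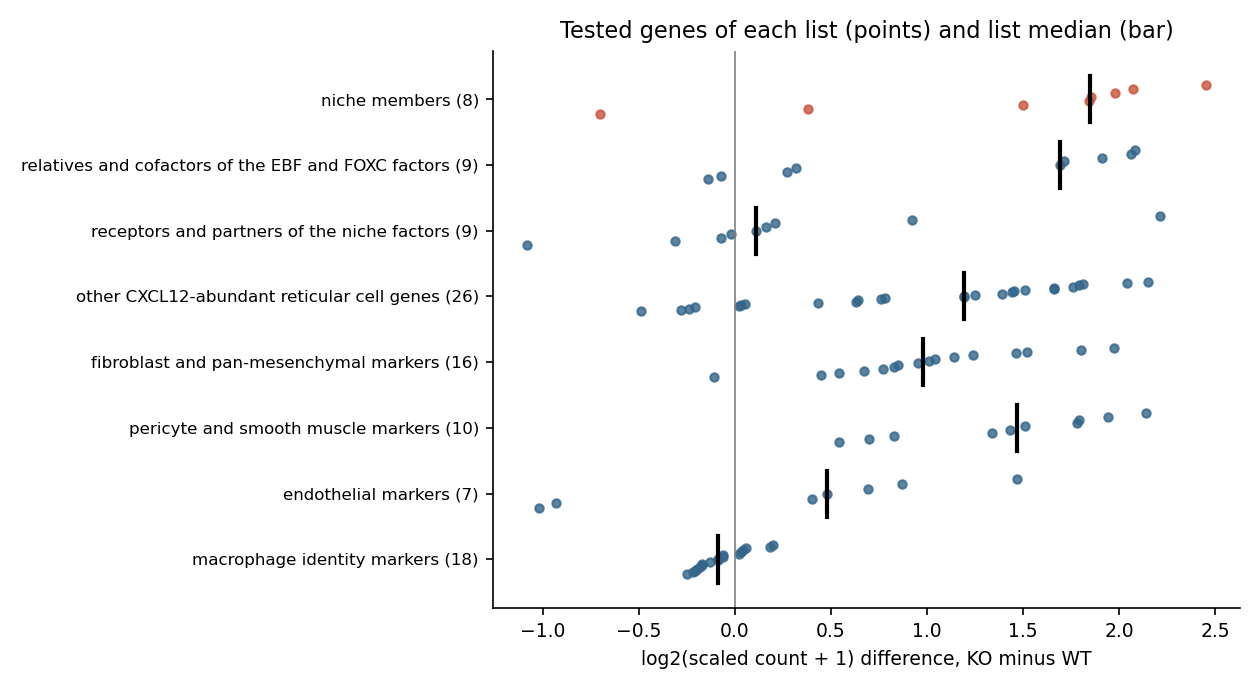
Differences in log2(scaled count + 1) between KO and WT (x axis) of the tested genes of 8 lists (y axis, number of tested genes in parentheses); each point is a gene and the bar is the list median. The median is 1.85 for the niche genes, 1.69 for relatives and cofactors of the EBF and FOXC factors, 0.98 for mesenchymal markers, 0.11 for receptors and partners, and -0.09 for macrophage identity markers.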

How the data were processed

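Poly(A) RNA of 6 libraries was prepared with a stranded mRNA kit and read as single reads of 72 bases, per the labels' protocols. Tools listed in the submitters' processing notes are DESeq2 1.36.0, featureCounts 2.0.3, STAR 2.7.10a and Trimmomatic 0.39, beside Picard, with the mm10 build and no stated roles. The deposited values are whole numbers treated as a score, counts scaled per library by the authors and rounded, and not as raw reads; no label states this, and it rests on near-equal library totals, so the depth in reads is unknown and no counting interval is given.

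Genes with at least 10 scaled counts in at least 3 libraries (13260 of 17313) were tested on log2(value + 1) in limma 3.58.1 under R 4.3.3, using its mean-dependent variance trend, with group as the only term, two-sided, with Benjamini-Hochberg adjustment at 0.05. The test was checked on simulated data. Exonic lengths came from GENCODE M21, where 99.1% of the 17297 genes found had the deposited start and end. All other steps used Python 3.11.15 and pandas 2.3.3. Alternatives were scalings, filters, pseudocounts, the variance model, left-out libraries and a replicate block.

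The members, gene lists and tests were chosen with earlier results of these data known. Named genes are the members, Hdac2, the tested genes of both pathway lists with those near 0, up to 4 of each other list by smallest p, and the 3 nearest profiles of each member, leaving out predicted models and pseudogenes. Lum, Dcn, Pecam1 and Ibsp were named after their values were seen.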

Additional observations from a re-analysis of the deposited data

How the results depend on the processing

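No tested member changed the sign of its difference under the scalings, filters, pseudocounts, variance model, left-out libraries or replicate block. Against WT 3 alone, however, the difference of Vcam1 was -0.25. Leaving out single libraries gave 0 to 2363 genes called and 0 to 5 members called, with every call in the fit without WT 1 and 0 without any other library. The counts at an unadjusted p under 0.05 were 1422 without KO 1 and 4349 without WT 1, against 3230 with all libraries. When KO was compared with WT 1 alone, whose spread is taken to equal that of KO, 0 genes and 0 members were called, 3 members had an unadjusted p under 0.05, and the members' median fell to 0.63; the cause was not tested. The median against WT 1 ranged from 0.49 to 1.08 on leaving out single KO libraries, the highest without KO 3. With the replicate number as a block 0 genes and 0 members were called. Deviations of same-numbered libraries from their group means correlated at 0.534, -0.364 and 0.024, and only WT 1 correlated best with its own number. With 3 libraries per group such deviations constrain one another, so whether the numbers pair the libraries cannot be told. The mean filter of 100 left 5 members. The depth in reads is unknown, and Lepr, at 0 to 9, is below what these values can compare: its untested difference was 0.77, and -0.07 without KO 1.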

Other observations

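Several bone-lineage genes were close to 0 in WT and had their highest value in KO 1, as Cxcl12 did. They were chosen after their values were seen and are given as values only. Tnfsf11, which encodes the osteoclast factor RANKL, was at 0, 1 and 0 scaled counts in WT and 14, 10 and 3 in KO. Ibsp, which encodes bone sialoprotein, was at 4, 1 and 0 and at 37, 23 and 3. Alpl, the alkaline phosphatase of bone, was at 12, 4 and 9 and at 75, 30 and 11, and Bmp4, a bone morphogenetic protein, was listed at 0 in all WT libraries and at 21, 3 and 3 in KO.

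Markers of further cell types were mostly low. Of 9 blood progenitor markers 5 were tested, with a median log2 difference of 1.22 and none called by limma. Without overlap 3 were higher and 1 lower in KO, beside 16.1% and 13.4% of all genes tested. Of 8 neutrophil markers 2 were measured and summed to 24, 27 and 32 in WT, against 17, 11 and 13 in KO. The 2 measured T and NK cell markers summed to 18 to 31 and to 32 to 49, and the 2 measured epithelial markers to 25, 10 and 2 and to 101, 74 and 78. The epithelial sum rested mainly on 1 gene, Krt19, at 22, 10 and 1 in WT, against 95, 73 and 75 in KO. Erythroid markers, a list of 7, were not analysed here. The part of these cells in the values of the niche genes was not tested.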
